A study of Mus musculus with 6 samples.

Results

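The 10 genes described here serve the homeostatic work of astrocytes, the glial cells that wrap synapses and blood vessels. They are the glutamate transporters Slc1a2 and Slc1a3, the glutamine synthetase Glul, the water channel Aqp4, the bicarbonate cotransporter Slc4a4, the gap junction proteins Gja1 and Gjb6, the folate enzyme Aldh1l1, the transcription factor Sox9 and the calcium-binding protein S100b. They were taken by mouse symbol, and all 10 were found among the 54532 genes of the tables and passed the filter on low values. The libraries came from cervical spinal cords of C57BL/6 mice, 3 with an itching skin inflammation, allergic contact dermatitis (ACD), and 3 controls. Mice were sensitised on the shaved abdomen with 20 µl of 1% squaric acid dibutylester (SADBE), a contact allergen, in acetone, daily for 3 days. After 5 days the ACD mice were challenged with 20 µl of the same 1% solution on the shaved nape, an area served by cervical segments, daily for 3 days, and the controls received acetone. The labels leave unclear whether the controls were sensitised too, and give no age, sex or day of dissection. They call the samples biological replicates, so each library was taken as 1 mouse.

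Astrocytes clear glutamate from the synaptic cleft through sodium-coupled transporters and turn it into glutamine, which neurons take back. They pass water through aquaporin-4, concentrated in the end feet around vessels, and couple to one another through connexin channels that spread ions and metabolites. In injury and inflammation astrocytes can also become reactive, a state marked by more of the filament protein Gfap and described in other settings with gain or loss of these homeostatic functions.

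None of the 10 genes passed the test between ACD and control cords, which 4.34% of all tested genes passed. Gfap rose by 0.48 on the log2 scale (limma adjusted p = 0.0332). The Gfap call was lost after rescaling to TPM, which brings each library to the same sum (adjusted p = 0.0503), with the replicate number as a block (0.0949), without limma's trend and robust settings (0.0797) and with any library but control 2 left out (0.0587 to 0.123). Aqp4 and Gjb6 had ACD estimates of 1.24 and 1.23 times the control level. In each, every ACD value lay above every control value, as for 13.1% of all tested genes. For Slc1a2 and Slc4a4 the 95% intervals of the change ran from 0.845 to 1.10 times and from 0.847 to 1.08 times. These intervals hold for the main scaling only. After rescaling to TPM the log2 fold changes were -0.15 and -0.16. With a dependence on GC content and exon length regressed out they were 0.09 and 0.04. Sox9 was lower in 2 of 3 ACD mice, at 0.763 times by estimate, with an interval of 0.568 to 1.03.

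The levels are in FPKM, which is per kilobase of exon, so that genes can be set side by side within a library. The values depend on the exon length assigned to each gene, from 1484 bases for S100b to 13133 for Slc1a2, and a gene whose transcripts leave out part of these exons has a lower FPKM. The denominators by which the 6 libraries were scaled were 16916599 to 20245577 reads. They are not the plain sums of reads: recovered reads summed to 0.976 to 1.027 times them in controls and 1.04 to 1.068 times in ACD. Between 315 and 46019 reads lay behind each single value of a member. Of 8 other defining astrocyte markers none was at 0, and their mean control levels ran from 9.68 FPKM for Cbs to 483 for Aldoc.

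In control cords the members spanned 90.7-fold, and 7 of the 10 lay above 90% of all tested genes. S100b and Glul were highest, at 570 ± 146 and 526 ± 49.9 FPKM (SD, n = 3, as for all levels), and their ranges overlapped. Slc1a2 followed at 174 ± 12.2 and Aqp4 at 124 ± 15.5. Gjb6, at 42.9 ± 4.83, and Slc4a4, at 37.9 ± 2.45, overlapped in controls. Below them stood Gja1 at 29.7 ± 1.80, Slc1a3 at 14.5 ± 1.09, Aldh1l1 at 11.7 ± 1.17 and Sox9 at 6.29 ± 0.360. Every other pair of neighbours in this order was separated in the 3 control libraries. The order of the means was the same in ACD cords. There the ranges of Gjb6 and Slc4a4 no longer overlapped, while those of Slc1a2 and Aqp4, and of Slc1a3 and Aldh1l1, did.

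**Figure D1:**
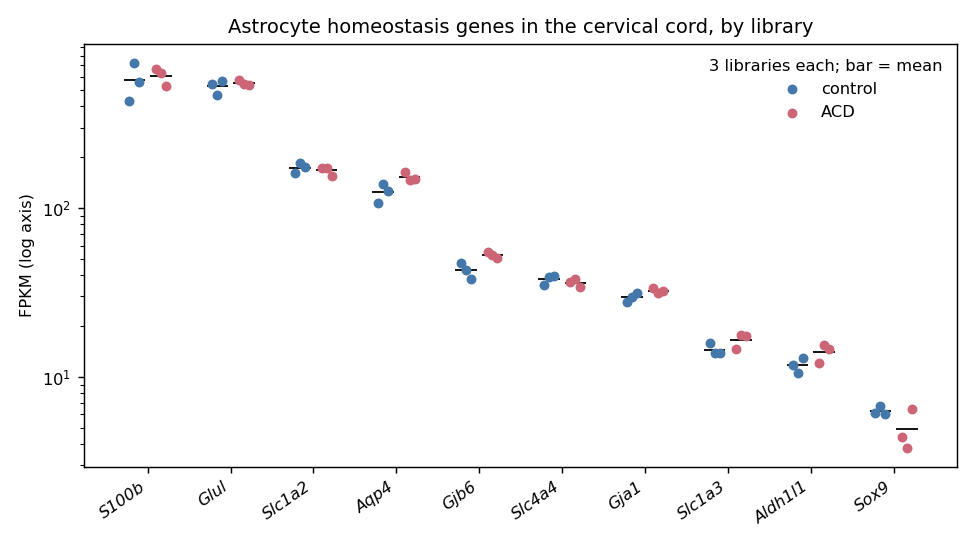
FPKM on a log axis of the 10 genes in each of the 3 control (blue) and 3 ACD (red) libraries, ordered by control mean, with a bar at each group's mean. Aqp4 and Gjb6 are the genes whose ACD points all lie above their control points, and Sox9 has 2 ACD points below its control points and 1 among them.

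The difference between ACD and control was tested for 21369 genes with limma on log2(FPKM + 0.1), and 4.34% of them passed an adjusted p of 0.05 (1.81% higher, 2.53% lower). Of the 10 members 0 passed in either direction. By unadjusted p 2 members, Aqp4 and Gjb6, were below 0.05, as were 22.3% of all genes. With limma-voom on recovered reads 0 passed as well, against 7.93% of all genes. All ACD values lay above all control values for 2 of the 10 members and for 13.1% of all genes. They lay below for 0 members and for 15.5% of all genes. Estimates were positive for 7 members and negative for 3, with a median log2 fold change of 0.12. Over all genes 48.6% were positive and the median was -0.01. In whole tissue, a change in the number of astrocytes and a change in RNA per astrocyte cannot be told apart.

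**Figure D2:**
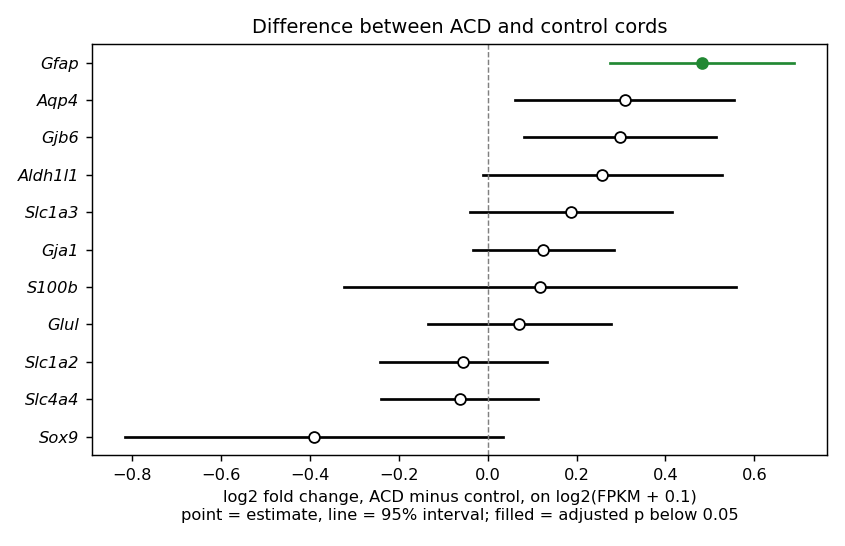
Log2 fold change (ACD minus control, on log2(FPKM + 0.1)) of the 10 genes and Gfap, with 95% intervals from limma. The filled point, Gfap at 0.48, is the one with an adjusted p below 0.05, and the interval of Slc4a4 is among the narrowest and that of S100b the widest.

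Slc1a2, also called GLT-1, is the main glutamate transporter of mature astrocytes. It lies on chromosome 2 at 102658659 to 102790784 (GENCODE M21, GRCm38, as for all positions). Its levels were 161, 185 and 176 FPKM in controls 1 to 3 and 173, 173 and 156 in ACD 1 to 3. The groups overlapped, and the lowest value belonged to ACD 3. The log2 fold change was -0.05 (SE 0.08, limma adjusted p = 0.729). The sign of this small difference depended on scaling: it was 0.09 once a dependence on GC content and exon length was regressed out and -0.15 after rescaling to TPM.

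Slc1a3, or GLAST, is the other astrocytic glutamate transporter here, on chromosome 15 at 8634124 to 8710764. Controls had 15.8, 13.9 and 13.9 FPKM and ACD cords 14.6, 17.6 and 17.6. ACD 2 and 3 lay above all controls and ACD 1 among them (log2 fold change 0.19, SE 0.10, limma adjusted p = 0.303; 0.09 after TPM scaling). The ratio of Slc1a2 to Slc1a3 was 10.2, 13.3 and 12.7 in controls and 11.8, 9.83 and 8.88 in ACD. These ratios overlapped, and their difference of -0.24 on the log2 scale gave an exact two-sided permutation p of 0.20 (0.325 adjusted over 13 ratios). With 3 against 3 the smallest p this test allows is 0.1, so none of the ratios here could pass 0.05.

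Glul makes glutamine from glutamate and ammonia, in astrocytes and also in oligodendrocytes. On chromosome 1 at 153899944 to 153909723, it was at 542, 470 and 566 FPKM in controls and at 572, 546 and 536 in ACD. The ACD values were close together and inside or just above the control range (0.07, SE 0.09, limma adjusted p = 0.672). The interval of the change ran from 0.911 to 1.21 times. Of 50-base words in its longest transcript 15.0% also occur in transcripts of other genes, so part of its reads may have been assigned elsewhere or not at all. Its estimate turned to -0.01 without control 2 and to -0.03 after TPM scaling.

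Other genes of amino acid and transmitter handling gave the same count: 0 of 15 passed in either direction, with a median log2 fold change of 0.02. The smallest p belonged to Slc25a18, a mitochondrial glutamate carrier of astrocytes, at 35.4, 33.7 and 38.5 FPKM in controls and 30.2, 26.5 and 33.5 in ACD. Its values did not overlap by a narrow margin (-0.26, SE 0.10, limma adjusted p = 0.185).

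Aqp4 forms the water channel of astrocyte end feet, on chromosome 18 at 15389496 to 15410982. Its levels were 107, 138 and 126 FPKM in controls and 164, 146 and 148 in ACD. Each ACD mouse was above each control, the lowest ACD value by a small margin over control 2. The log2 fold change was 0.31 (SE 0.10, 95% interval 0.06 to 0.55) with a limma adjusted p of 0.145. Over the alternatives it ranged from 0.21 to 0.43, with adjusted p of 0.0537 to 0.354.

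Slc4a4 brings sodium and bicarbonate across the membrane and so links astrocytes to the control of pH. It lies on chromosome 5 at 88886818 to 89239653. Controls had 35.04, 39.2 and 39.4 FPKM and ACD cords 36.4, 38.1 and 34.2, which overlapped throughout (-0.06, SE 0.07, limma adjusted p = 0.667). As for Slc1a2, the sign depended on scaling, with 0.04 with the length and GC correction and -0.16 after TPM scaling. Among 15 further genes of potassium, bicarbonate and ion transport 0 passed (median 0.08). Kcnj10, the inward rectifier Kir4.1 that takes up potassium, was at 173 ± 24.8 and 186 ± 9.48 FPKM (0.11, SE 0.11). It was chosen after its values were seen. The smallest p was that of the chloride channel Clcn2, at 8.11, 8.16 and 7.93 FPKM in controls and 6.66, 6.51 and 6.71 in ACD. Clcn2 was clearly separated but did not pass over all genes (-0.28, SE 0.06, limma adjusted p = 0.0525). It passed under 4 alternatives, at 0.0374 to 0.0450: TPM scaling, the length and GC correction, a filter at 1 FPKM and limma-voom.

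The list around Aqp4 holds genes of the complex that anchors it at the end foot, other perivascular and astrocyte genes, and Aqp1, Aqp9 and Aqp11. Of its 14 genes 0 were higher and 1 was lower (median 0.06). Agrn, agrin, a heparan sulfate proteoglycan of the basement membrane that binds dystroglycan, fell from 17.3, 15.1 and 18.1 FPKM to 11.7, 11.1 and 11.2. Its ACD values were nearly identical (-0.57, SE 0.08, limma adjusted p = 0.0193). In which cells of the cord Agrn fell was not tested. Dag1 (0.21), Dtna (-0.05), Dmd (-0.21) and Sntb1 (0.41), of the dystrophin complex, did not pass. In the list 7 estimates were positive, 3 genes had every ACD value above every control value and 2 had every one below. Over all tested genes the last 2 shares were 13.1% and 15.5%. Agrn had adjusted p of 0.0592 without control 1 and of 0.0594, 0.0666 and 0.0772 without ACD 1, 2 and 3.

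Gja1 and Gjb6 encode connexin 43 and connexin 30, the channel proteins through which astrocytes couple to each other. Gjb6, on chromosome 14 at 57123303 to 57133611, was at 47.6, 43.1 and 37.9 FPKM in controls and at 54.7, 52.5 and 50.4 in ACD. All 3 ACD mice were above all controls, and they varied less (0.30, SE 0.09, 95% interval 0.08 to 0.51, limma adjusted p = 0.118). The estimate ranged from 0.20 to 0.38 over the alternatives, with adjusted p of 0.0531 to 0.294. Gja1, on chromosome 10 at 56377330 to 56402513, was at 28.0, 29.6 and 31.6 in controls and 33.5, 31.5 and 32.3 in ACD. Its groups overlapped only between control 3 and ACD 2 (0.13, SE 0.07, limma adjusted p = 0.324). The value for Gja1 was 0.28 (adjusted p = 0.0509) with the length and GC correction and 0.03 (adjusted p = 0.872) after TPM scaling.

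Within a library, Gja1 stood at 0.588, 0.687 and 0.833 times Gjb6 in controls and at 0.613, 0.599 and 0.640 times in ACD. The ACD ratios lay inside the control range (exact permutation p = 0.40, adjusted 0.433). Gjb2, connexin 26, which astrocytes and the meninges also make, was far lower, and Gjb6 stood at 9.49 to 12.2 times its level in controls and 10.1 to 15.96 times in ACD (exact permutation p = 0.40, adjusted 0.433). Of 10 tested connexin, pannexin and junction genes besides the members 0 passed, 8 had positive estimates, and the median was 0.18. The smallest p was that of Panx2, a pannexin, at 52.8, 47.5 and 53.9 FPKM in controls and 54.5, 58.6 and 63.2 in ACD (0.19, SE 0.08, limma adjusted p = 0.226). Summed markers of meningeal fibroblasts, which also express Gja1 and Gjb6, were at 20.0 to 48.5 FPKM in controls and 34.1 to 46.1 in ACD, highest in control 1, and 0 of these 10 markers passed or were at 0 throughout. Their part in the connexin values was not tested.

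Aldh1l1, the formyltetrahydrofolate dehydrogenase used as a marker of all astrocytes, lies on chromosome 6 at 90486427 to 90600203. It was at 11.7, 10.6 and 12.9 FPKM in controls and 12.1, 15.5 and 14.6 in ACD. ACD 2 and 3 were above the controls and ACD 1 among them (0.26, SE 0.11, limma adjusted p = 0.238; 0.16 after TPM scaling). Antisense and other gene models overlap its exons, the largest over 11.05% of them, but were at 0 FPKM in most libraries. In the list of folate, glycogen, lactate and lipid metabolism 0 of 20 genes passed, with 14 positive and a median of 0.17. The glucose transporter Slc2a1, which endothelium expresses more than astrocytes, had the smallest p, at 54.0, 51.2 and 49.96 FPKM in controls and 90.5, 70.4 and 64.8 in ACD (0.53, SE 0.12, limma adjusted p = 0.0614). It passed with a filter at 1 FPKM (0.0443) and with limma-voom (0.0117).

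Sox9 directs the switch to gliogenesis and is kept on in adult astrocytes and in ependymal cells. It lies on chromosome 11 at 112782224 to 112787760. Controls were close together at 6.09, 6.70 and 6.07 FPKM, and ACD cords had 4.39, 3.82 and 6.45. ACD 1 and 2 were below every control, and ACD 3 was inside the control range. The log2 fold change was -0.39 (SE 0.18, 95% interval -0.82 to 0.04, limma adjusted p = 0.258). It was -0.60 without ACD 3 (adjusted p = 0.0709) and -0.23 without ACD 2 (adjusted p = 0.533). The coefficient of variation was 5.73% in controls and 28.3% in ACD, where counting error alone would give about 5.25%. Summed ependymal markers were at 19.8 to 22.4 FPKM in controls and 19.7 to 21.3 in ACD, and their order over the ACD libraries was not that of Sox9. Foxj1, at means of 13.6 FPKM in controls and 14.0 in ACD, made up most of the sum. Of 9 tested ependymal markers 0 passed, and none was at 0 throughout (median -0.42). Every ACD value was below every control value for 4, against 15.5% of all tested genes, and above for 1, against 13.1%. The 4 were Cfap44, Dnah6, Dnah11 and Hydin, at low control means of 0.138 to 0.650 FPKM. The part of ependymal cells in the Sox9 values was not tested. Of 20 transcription factors and lineage signals 1 fell and 0 rose (median -0.0003). The one that fell was Zbtb20, a repressor that promotes astrocyte formation, at 4.63, 4.22 and 4.43 FPKM in controls and 3.42, 3.00 and 2.86 in ACD (-0.51, SE 0.10, limma adjusted p = 0.0356). Its difference was -0.13 (adjusted p = 0.431) with the length and GC correction, and its adjusted p was 0.0597 to 0.120 with any 1 library left out.

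S100b is a calcium sensor of astrocytes that mature oligodendrocytes and Schwann cells also make, on chromosome 10 at 76253853 to 76261159. It varied more between control mice than any other member, at 430, 721 and 559 FPKM, and stood at 662, 631 and 529 in ACD. The control range spanned all ACD values (0.12, SE 0.19, limma adjusted p = 0.752). Its coefficient of variation in controls was 25.6%, against a counting error of 0.835%. Without control 1 the estimate was -0.07 and without control 2 it was 0.30, so no direction was measured. Summed oligodendrocyte markers were at 5330, 7987 and 6860 FPKM in controls and 9449, 8468 and 7941 in ACD, in the same order within each group as S100b. Across both groups the orders differed, with S100b highest in control 2 and the summed markers highest in ACD 1. Schwann and satellite glia markers, some of them shared with oligodendrocytes, were at 1942 to 2969 and 3271 to 3918. In these lists 0 of 12 and 0 of 10 markers passed, and none was at 0 throughout. Estimates were positive for 11 and 9 of them, with medians of 0.32 and 0.56. Every ACD value was above every control value for 4 and 7 markers, against 13.1% of all tested genes. In neither list was every ACD value of a marker below every control value. The part of these cells in the S100b values was not tested. Among 8 tested genes of the S100 family besides S100b 1 rose (median 0.41). S100a6, calcyclin, which stressed glia and fibroblasts express, went from 13.1, 16.1 and 11.4 FPKM to 20.5, 20.3 and 21.3 (0.62, SE 0.12, limma adjusted p = 0.0384). Its adjusted p was 0.0538 to 0.129 without control 1, control 3 or any ACD library.

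Gfap was at 382, 448 and 408 FPKM in controls and at 587, 533 and 608 in ACD, with no overlap (0.48, SE 0.09, limma adjusted p = 0.0332; 0.38 and adjusted p = 0.0503 after TPM scaling). Its adjusted p was 0.0587 to 0.123 without control 1, control 3 or any ACD library. It was set against the members knowing that it rose, so the direction of these ratios is no separate evidence. Ratios within a library do not change with the scaling of the library. All 10 ratios to Gfap were lower in ACD by their means, as were 93.6% of those of the other 21368 tested genes. For 6 of the 10, those of Aqp4, Slc1a2, Glul, Gja1, Slc4a4 and Sox9, every ACD ratio was below every control ratio (exact two-sided permutation p = 0.10, the smallest possible, adjusted 0.217). The same held for 63.0% of the 21368 genes, so this count was near the background and is no result about the members. Slc1a2 stood at 0.420, 0.412 and 0.432 times Gfap in controls and at 0.294, 0.325 and 0.257 times in ACD, a ratio of 0.690 between the groups. Slc4a4 was similar, at 0.0917, 0.0873 and 0.0966 against 0.0620, 0.0715 and 0.0563. For Aqp4 the groups were barely apart, at 0.281, 0.308 and 0.309 against 0.280, 0.273 and 0.244. The ratios of Gjb6, Slc1a3, Aldh1l1 and S100b overlapped (exact permutation p of 0.20 to 0.50).

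**Figure D3:**
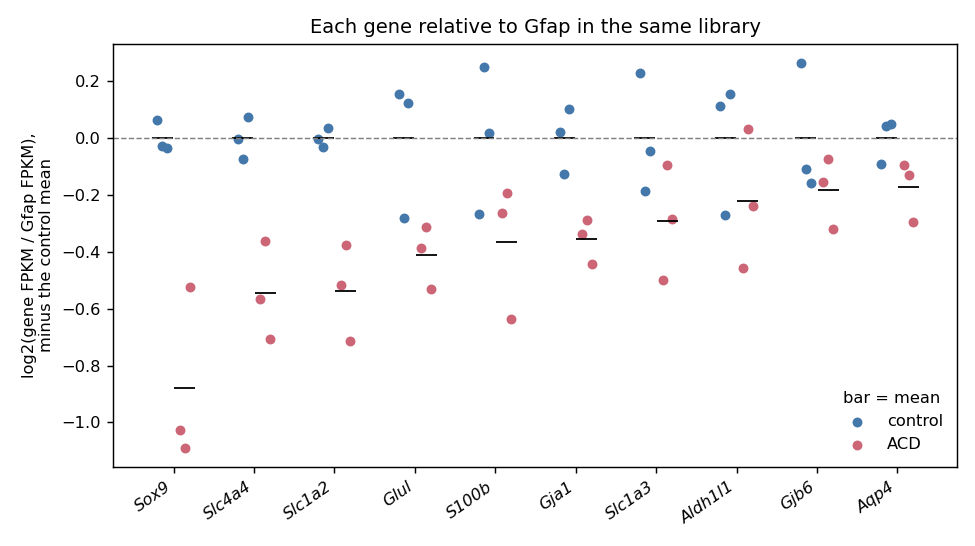
Log2 of each gene's FPKM over that of Gfap in the same library, minus the control mean, for 3 control (blue) and 3 ACD (red) libraries, with bars at the means. ACD points lie below all control points for Sox9, Slc4a4, Slc1a2, Glul, Gja1 and Aqp4, and mix with them for the other genes; over all other tested genes the share with ACD below all controls is 63.0%.

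Of 26 other astrocyte markers 1, Gfap, rose and 0 fell, with a median of 0.11, and 7 had every ACD value above every control value, against 13.1% of all tested genes. Their summed level, Gfap included, was 2820 to 3133 FPKM in controls and 3356 to 3523 in ACD, without overlap, and that of the members was 1384 to 1658 and 1525 to 1727, with overlap. Among 21 reactive astrocyte genes 2 rose, Gfap and the small heat shock protein Hspb1 (30.7 ± 3.57 to 47.2 ± 4.52 FPKM; 0.62, SE 0.11, limma adjusted p = 0.0274), 0 fell, and the median was 0.33. Without control 2, control 3 or any ACD library, Hspb1 had adjusted p of 0.0571 to 0.0872, and after TPM scaling 0.0549. Hspb1 is made by endothelial and other cells as well. In the reactive list 17 of the 21 estimates were positive, as were 48.6% of those of all tested genes. Every ACD value was above every control value for 6 of the 21 and below for 0, against 13.1% and 15.5% of all tested genes. Of all tested genes 1.81% were called higher. Gfap is in both lists. A difference between either list and the members was not tested.

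**Figure D4:**
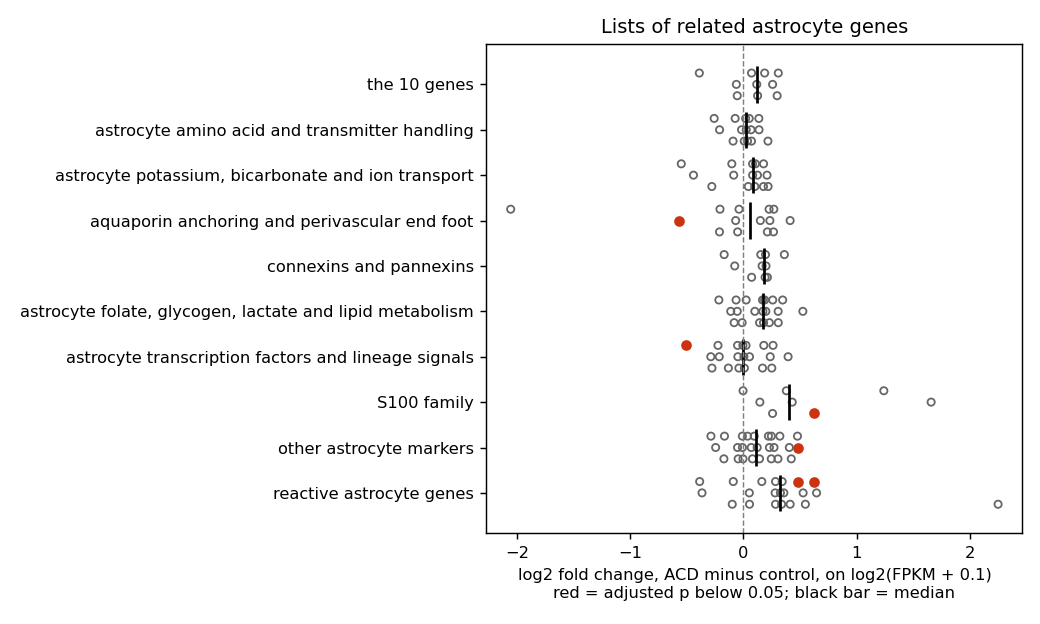
Log2 fold changes (ACD minus control, on log2(FPKM + 0.1)) of the 10 genes and of the tested genes in 9 lists of related genes, 1 point a gene, filled red where the adjusted p was below 0.05 and with a black bar at each median. The members' median is 0.12 with no filled point, and the reactive list has its median at 0.33 with 2 filled points. Gfap is a filled point both there and in the list of other astrocyte markers.

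By the profile over the 6 libraries, 3 genes among 13640 of mean 1 FPKM or more were nearest to the members' median profile. They were Arl8a, Sdc2 and Auh, at root mean square distances of 0.020, 0.023 and 0.023 in log2 units after each gene's mean was subtracted. Arl8a was at 64.2, 67.3 and 68.8 FPKM in controls and 71.3, 72.6 and 71.8 in ACD. The median profile was at -0.08, -0.03 and 0.02 in the controls and at 0.06, 0.07 and 0.07 in ACD, so genes that change little are near to it.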

How the data were processed

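Each of the 6 deposited tables holds FPKM (fragments per kilobase of exon at a common library size) for 54532 Ensembl genes, as the values show. The submitters' processing notes name, with no role, the build mm10, DESeq2 1.16.1, featureCounts 1.5.0-p3 and HISAT2 2.0.5; strandedness, kit and annotation release were not stated. Symbols, positions and exon lengths came from GENCODE M21 (GRCm38, to which mm10 corresponds).

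Genes averaging at least 0.1 FPKM were tested on log2(FPKM + 0.1) in R 4.3.3 with limma 3.58.1 (lmFit; eBayes, trend and robust). Benjamini-Hochberg adjustment covered all 21369 genes, threshold 0.05. The fit was tested on simulated data for this comparison (20050 genes): 19 of 127 calls were false, and 0 of these were among genes averaging 20 reads or more. These counts do not give the share of false calls in the real libraries, nor that of true changes missed. Ratios within a library were compared by exact permutation tests (scipy 1.17.1).

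Exon lengths and value steps gave whole reads, within 0.05, for 96.8% of values above 0. For Aqp4, at 6233 bases, they did not. Of all lengths from 3116 to 9349 bases, 5082 alone made its 6 values whole and was used. The reads served for read counts, counting error and limma-voom, which took the denominators as library sizes. Other alternatives were pseudocounts, filters, scalings, a GC and length correction, limma's settings, a replicate block and single libraries left out.

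The 10 genes and all lists were chosen with earlier results of these data known. Named were all 10 genes, Gfap, up to 4 passing genes a list or else that with the smallest p, and the 3 genes of mean 1 FPKM or more nearest to the members' median profile. Of other cell types, summed levels were given for meningeal fibroblast, ependymal, oligodendrocyte, and Schwann and satellite glia markers only. Some genes are not reported here and were left out of the lists' counts and medians. Any other gene named was chosen after its values were seen.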

Additional observations from a re-analysis of the deposited data

How the results depend on the processing

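Of the 10 members 0 passed under each of the 16 alternatives run. Median-of-ratios scaling, 1 of these, left the members' estimates nearly unchanged and gave 927 calls as in the main fit, so it adds little. The number of all genes passing, 927, moved more: 556 without a filter, 420 without trend and robust settings, 1630 with limma-voom and 192 to 736 with 1 library left out. With the replicate number as a block 181 genes passed, and Gfap, Agrn, Zbtb20 and S100a6 did not (adjusted p of 0.0546 to 0.0949). Same-numbered libraries did not deviate together (r of -0.0277, 0.0146 and 0.00345 across genes), and not every library correlated best with its own number. Signs changed for Glul (-0.026 after TPM scaling; -0.0070 without control 2, to 0.127 without control 3), for Slc1a2 (0.088) and Slc4a4 (0.042) with the length and GC correction, and for S100b (-0.070 without control 1, to 0.30 without control 2). Of all calls 41.6% were higher in ACD, 22.8% after TPM scaling and 65.2% with the length and GC correction. TPM scaling moved the median of all genes from -0.01 to -0.10. The cause was not tested. Without trend and robust settings Gfap, Hspb1, Agrn, Zbtb20 and S100a6 had adjusted p of 0.0578 to 0.0948. Without a filter Zbtb20 and S100a6 had 0.0590 and 0.0620.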

Other observations

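Aqp1, a water channel of other cells and a member of the list around Aqp4, was at 11.9, 0.758 and 0.329 FPKM in controls 1 to 3 and at 0.395, 0.150 and 0.395 in ACD 1 to 3. Control 1 stood apart, and the difference did not pass (limma adjusted p = 0.353). The meningeal transporters Slc6a13 and Slc13a4 were highest in control 1 as well, at 6.43 and 3.98 FPKM against 1.87 to 4.22 and 0.611 to 2.62 in the other libraries. These genes were chosen after their values were seen. Of the list of 10 meningeal fibroblast markers, 8 had positive estimates. For 3 of the 10 every ACD value was above every control value, against 13.1% of all tested genes, so control 1 was not highest for these. Without control 1 the log2 fold change of Aqp4 was 0.21 (adjusted p = 0.264) and that of Gjb6 0.38 (adjusted p = 0.0923). Among S100 genes, the neutrophil alarmins S100a8 and S100a9 were at means of 13.8 ± 10.7 and 26.6 ± 25.3 FPKM in controls. In ACD they were at 36.6 ± 5.56 and 47.7 ± 5.69, with limma adjusted p of 0.106 and 0.263. S100a9 was highest of all libraries in control 2, at 55.9 FPKM, so its groups overlapped. S100a8 did not overlap, but control 2 stood apart there too, at 26.1 FPKM against 8.43 and 6.73 in controls 1 and 3.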
